A study of Mus musculus with 22 samples.

Results

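A set of 38 mouse genes that build the neuronal cytoskeleton and the machinery of synaptic release was followed across fibroblast-to-neural-progenitor induction, neural progenitor cultures and teratoma. The genes were chosen by name as known neuronal genes, with earlier results of these data known. All 38 were found among the 22517 named genes of the expression tables. They fall into 6 roles: 8 cytoskeleton genes, 8 genes of the membrane fusion machinery, 5 vesicle proteins, 5 RNA-binding proteins of neurons, 6 genes of the active zone and synaptic scaffold, and 6 genes that set transmitter identity. Messenger RNA captured by its poly(A) tail was sequenced from 22 libraries, 2 for each of 11 groups, all labelled strain C57BL/6. The groups were induction cultures begun from mouse embryonic fibroblasts, sampled at days 1, 4, 7, 10, 14, 17 and 21, the primary neurosphere-like clusters called pre-NPCs, an established induced line at passage 6 called giNPC P6, progenitors from neonatal brain called Brain-NPCs, and teratoma tissue. The question the series poses is through which states fibroblasts pass on the way to neural progenitors. The sources used here do not give the inducing agents, the source of the teratoma or whether giNPC P6 is 1 clone. Its 2 libraries did not share the marks of 1 sex, as libraries of 1 clone would (values below). Nor do the sources say that paired libraries are separate cultures or animals, so p-values below measure only the spread between these libraries.

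Neurons release transmitter when a vesicle docks at the active zone and a bundle of membrane-anchored proteins, the SNARE complex, pulls the vesicle and plasma membranes together. Several synaptotagmins sense calcium, complexins clamp and promote fusion, and synapsins hold vesicles in reserve. Microtubule-associated proteins, neuronal tubulin, stathmins and doublecortin shape axons and dendrites, while neurexins and neuroligins join the membranes across the cleft. Several of these genes are also active in neural progenitors, glia, endocrine cells or fibroblasts, so a transcript alone does not mark a neuron.

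Each library had between 3084428 and 9689996 reads counted in transcripts. Levels are FPKM, fragments corrected for the length of the transcript and the depth of the library, summed over the transcripts of a gene, which allows levels to be compared between genes. A gene was called higher or lower when limma's Benjamini-Hochberg adjusted p was under 0.05 and the log2(FPKM + 1) value differed by at least 1 (this scale understates the change of genes near 1 FPKM). The labels were set against marker lists. On day 1 all 10 fibroblast markers were at 1 FPKM or more, and their sum was 4592 and 4532 FPKM in the 2 libraries. All 10 neural progenitor markers were at 1 FPKM or more in Brain-NPCs, and 9 and 10 of them in the giNPC P6 libraries. Some libraries of a group did not share the marks of 1 sex: Xist, the RNA that silences an X chromosome in females, was at 64.7 FPKM in the first giNPC P6 library and 2.13 in the second, while the Y-linked Eif2s3y was at 0 and 29.8. The pre-NPC libraries held 29.97 and 49.45 FPKM of Xist and 1.57 and 22.2 of Eif2s3y, and every library from day 1 to day 21 held under 0.2 of Xist and over 34 of Eif2s3y. Their part in the results was not tested, and values without single libraries are given where they change a result. In bulk RNA, fewer cells of a type and less RNA per cell cannot be told apart.

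The number of members at a mean of 1 FPKM or more went from 9 on day 1 to 18 on day 10, 26 on day 17 and 24 on day 21. Pre-NPCs had 20 such members, giNPC P6 26, Brain-NPCs 23 and teratoma 37. Most members reached their highest mean in teratoma (32 of 38). The share of all genes with their highest mean there was not counted, but teratoma libraries also held more genes of any kind. All genes at 1 FPKM or more numbered 11051 and 11044 in the day 1 libraries and 11869 and 11823 on day 17. They numbered 11464 and 11400 in giNPC P6 and 15149 and 15131 in teratoma. Outside teratoma, the highest mean of 11 members lay on day 17 and that of 9 in giNPC P6. The sum over all members was 318 and 321 FPKM on day 1 and 1856 and 1808 FPKM in teratoma, with Gap43 alone giving 245 and 244 FPKM of the day 1 sums. Slc17a7, the vesicular glutamate transporter of cortical neurons, stayed under 1 FPKM in all 22 libraries and was the only member that could not be tested.

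**Figure D1:**
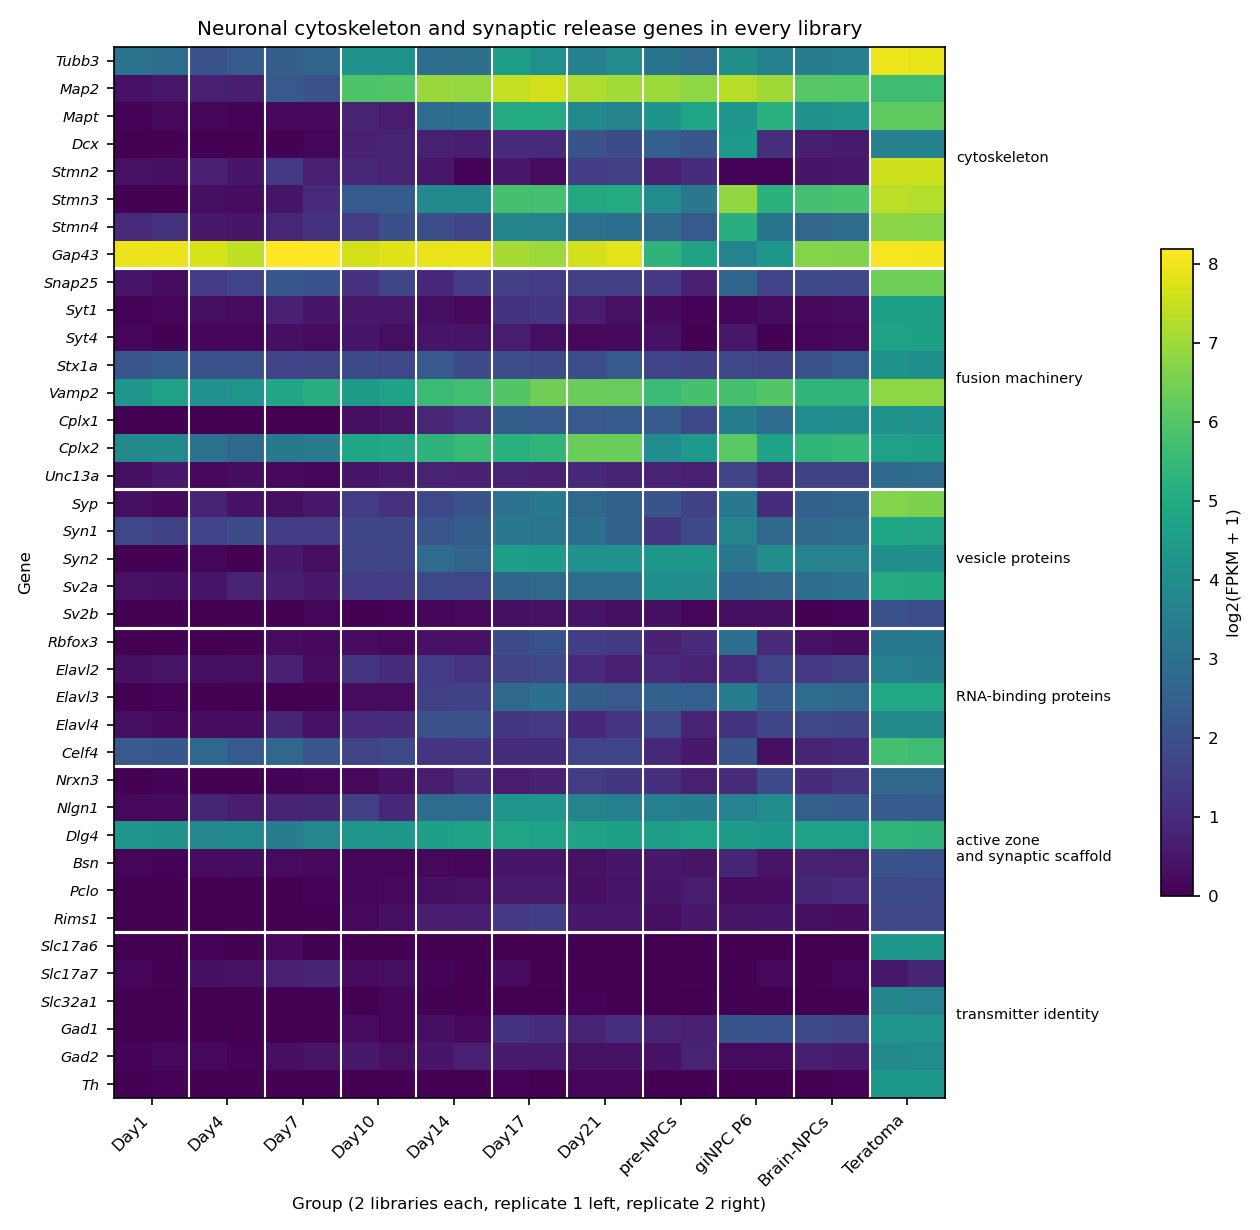
Heat map of log2(FPKM + 1) for the 38 genes in rows, grouped by role, and the 22 libraries in columns, replicate 1 left and replicate 2 right within each group. Rows brighten from day 10 on for genes such as Map2, Stmn3 and Nlgn1, while Stmn2, Snap25 and the transmitter genes are bright in the teratoma columns.

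Against day 1, the 37 tested members were called higher with increasing frequency up to day 17. On day 4 only Snap25 was called higher, 1 of 37, against 6.95% of all 15658 tested genes higher and 0.843% lower. On day 7 Map2 and Snap25 were called higher (5.41%), against 9.02% of all genes higher and 1.88% lower. Day 10 had 8 higher members, or 21.6%, against 14.5% of all genes higher and 2.62% lower, but 5 of these 8 calls were lost under median-of-ratios scaling, leaving Map2, Stmn3 and Syn2. On day 14, 12 members were higher, or 32.4%, against 15.7% of all genes higher and 6.96% lower. On day 17, 21 members were higher, or 56.8%, against 19.3%, and Celf4 was lower, against 10.5% of all genes. On day 21, 18 members were higher, or 48.6%, against 18.3% of all genes higher and 10.3% lower. The median change of the members was 1.15 on the log2 scale on day 17, where the median of all genes was 0.14, and 0.92 on day 21, where that of all genes was 0.12. With a pseudocount of 0.1 in place of 1, more members and more of all genes were higher: 21.6% and 15.1% on day 7, 51.4% and 22.8% on day 10, 59.5% and 23.0% on day 14 and 75.7% and 25.2% on day 21. All these comparisons share the day 1 libraries. Within the culture itself, 7 members were higher on day 21 than on day 14 (18.9%, against 4.48% of all genes higher and 4.57% lower), namely Stmn2, Stmn3, Stmn4, Syn2, Cplx1, Sv2a and Rbfox3. That count fell to 3 or 4 when any 1 of those 4 libraries was left out. Stmn3 and Stmn4 lost the call each time, with changes that stayed at 1.08 to 1.14 and 1.08 to 1.33.

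Markers of glia and progenitors moved over the same days. The sum of 8 astrocyte markers went from 2.59 and 4.75 FPKM on day 1 to 589 and 673 on day 14 and 2901 and 3124 on day 21, with Gfap, the intermediate filament of astrocytes, at a mean of 1122 FPKM. The sum of 10 neural progenitor markers went from 39.6 and 59.9 FPKM on day 1 to 6334 and 6182 on day 17, and that of 10 oligodendrocyte lineage markers from 39.5 and 38.4 to 941 and 977. Fibroblast markers summed to 239.5 and 199.6 FPKM on day 17. The part of these cells in the members' levels was not tested.

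**Figure D2:**
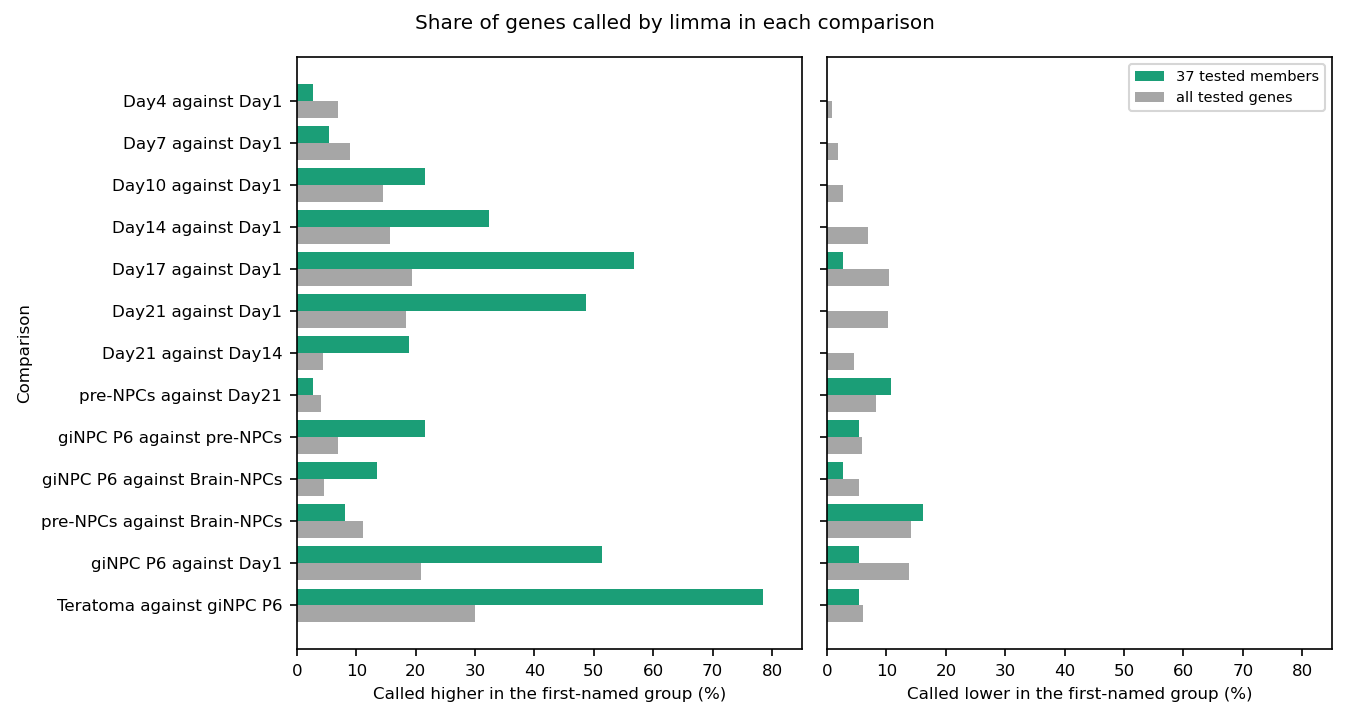
Share of the 37 tested members (green) and of all tested genes (grey) called higher (left) or lower (right) by limma in the first-named group of each comparison, in percent on a linear axis from 0. Against day 1 the members' share higher is below that of all genes on day 4 (2.7% and 6.95%) and day 7 (5.41% and 9.02%). The members' share is above that of all genes on days 10 to 21, reaching 56.8% on day 17. It is 78.4% for teratoma against giNPC P6, and below that of all genes for pre-NPCs against day 21 (2.7% and 4.05%) and against Brain-NPCs (8.11% and 11.1%).

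Map2, a microtubule-associated protein of dendrites, showed the largest change among the members during induction. It lies on mouse chromosome 1 (chr1:66221903-66489157 in mm9). Its level was 0.322 and 0.435 FPKM in the day 1 libraries, 3.84 and 3.06 on day 7, 59.6 and 62.0 on day 10, and 174 and 195 on day 17. The libraries of these days did not overlap, and the level on day 21 was 147 and 131 FPKM. The log2 change was 1.68 ± 0.11 (standard error) on day 7 (limma, adjusted p = 1.99e-08), 5.49 ± 0.11 on day 10 (adjusted p = 3.04e-13) and 7.07 ± 0.11 on day 17 (adjusted p = 1.95e-15). Map2 was at 159 and 129.9 FPKM in giNPC P6, above the 65.8 and 65.0 FPKM of Brain-NPCs (log2 change 1.13 ± 0.11, limma adjusted p = 2.77e-06), and without giNPC P6 replicate 1 the change was 0.98 and no longer called. Teratoma held 49.2 and 48.8 FPKM, lower than giNPC P6 by limma (log2 change -1.54 ± 0.11, adjusted p = 6.65e-09).

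Map2 was listed with 2 transcripts, of 5427 and 5520 bases. In the GENCODE annotation they differ by 1 exon that only the longer holds and in the extent of their first and last exons. This exon, number 12 of 15, holds 93 bases (chr1:66431527-66431619 on the plus strand of GRCm38) and encodes an additional microtubule-binding repeat. It is shown because the share of the transcript that lacks it set teratoma apart from the cultures, with the exon in capitals between 30 bases of each neighbouring exon.
Map2 exon 12: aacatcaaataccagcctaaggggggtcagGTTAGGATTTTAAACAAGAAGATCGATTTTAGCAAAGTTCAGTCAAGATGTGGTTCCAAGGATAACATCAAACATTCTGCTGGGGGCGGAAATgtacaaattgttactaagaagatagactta

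The transcript without this exon made up 85% and 86.1% of Map2 FPKM in the teratoma libraries. It made up 22.6% and 27.9% in giNPC P6 and 21.2% and 10.9% in pre-NPCs. The share was 3.4% and 3.1% on day 14, 10.6% and 8.0% on day 17, 7.0% and 5.6% on day 21, and 9.0% in both Brain-NPC libraries. The 2 teratoma libraries thus lay far above all others from day 10 on, while the groups below them overlapped in part. The low total at days 1 to 7 gives these shares no weight there. They are the authors' Cufflinks estimates, described without a test, and transcripts of Map2 that the tables do not list cannot be told apart from the 2 that they do.

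**Figure D3:**
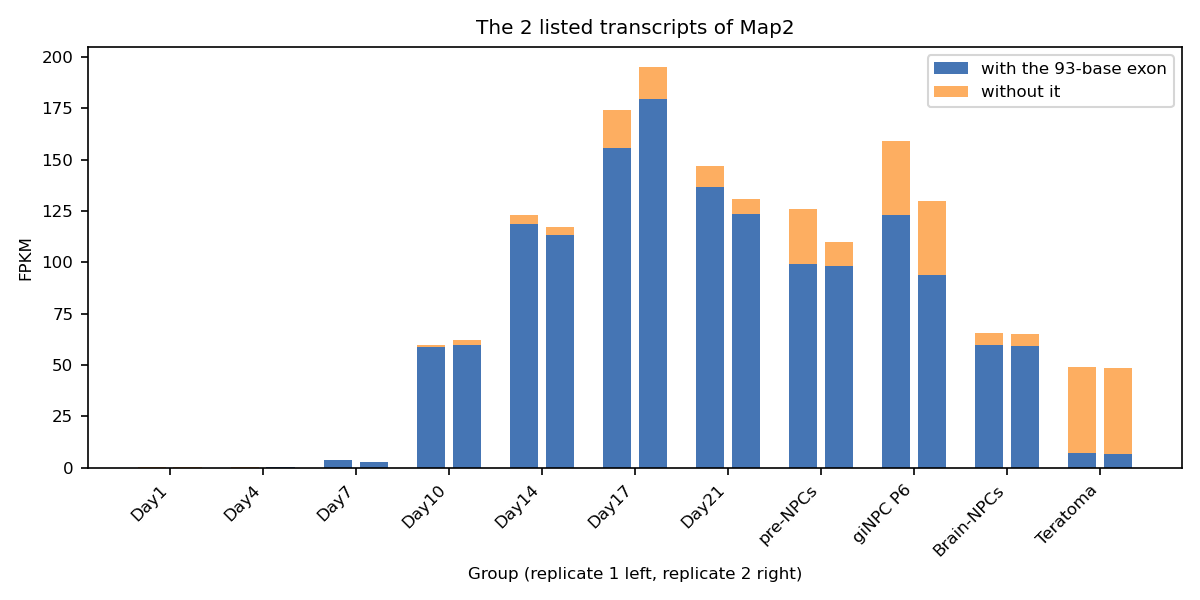
Stacked bars of FPKM of the Map2 transcript with the 93-base exon (blue) and the one without it (orange) in each library, replicate 1 left and replicate 2 right, on a linear axis from 0. The orange part is 85% and 86.1% of the bar in teratoma and at most 27.9% from day 10 to Brain-NPCs.

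Mapt, which encodes the axonal microtubule-associated protein tau, followed Map2 with a lag. It was at 0.0583 and 0.138 FPKM on day 1, 0.747 and 0.571 on day 10, 6.37 and 6.97 on day 14, and 30.96 and 31 FPKM in the libraries of day 17, with 14.2 and 11.7 on day 21. Every library from day 14 on lay above those of days 1 to 10. Its log2 change against day 1 was 2.80 ± 0.23 on day 14 (limma, adjusted p = 8.42e-08) and 4.86 ± 0.23 on day 17 (adjusted p = 1e-10). In teratoma Mapt was at 72.6 and 72.0 FPKM, against 18.8 and 36.2 in giNPC P6 (log2 change 1.43 ± 0.23, limma adjusted p = 5.29e-05), a call that was lost without giNPC P6 replicate 1 (0.98).

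Tubb3, the neuron-specific beta-tubulin, stayed within 3.31 and 22.3 FPKM in the 20 libraries outside teratoma. It was called higher than day 1 at days 10 and 17, when it held 16.5 and 17.4 and 22.3 and 16.4 FPKM against 7.66 and 6.83, with log2 changes of 1.12 ± 0.18 (limma, adjusted p = 0.000122) and 1.29 ± 0.18 (adjusted p = 1.75e-05). Both calls were lost under median-of-ratios scaling, where the changes were 0.75 and 0.97. Teratoma held 250.1 and 238.9 FPKM, 18 times the mean of giNPC P6 (log2 change 4.10 ± 0.18, limma adjusted p = 1.55e-11).

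The stathmins, which bind tubulin and promote microtubule turnover, did not move as a group. Stmn3 was listed at 0 in both day 1 libraries and reached 4.17 and 4.19 FPKM on day 10 and 54.6 and 52.9 on day 17 (log2 change 5.78 ± 0.35, limma adjusted p = 1.59e-09). It was lower in pre-NPCs, at 14.3 and 8.58 FPKM, than on day 21, at 30.6 and 31.7 (log2 change -1.41 ± 0.35, adjusted p = 0.0041). That call was lost without pre-NPC replicate 2 (-1.07). Stmn4 was between 0.401 and 2.96 FPKM up to day 14 and at 12.4 and 11.5 on day 17 (log2 change 2.60 ± 0.41, limma adjusted p = 6.03e-05). Stmn2, a stathmin of growing axons on chromosome 3 (chr3:8509527-8561604 in mm9), lay at or under 1.92 FPKM in all 20 libraries outside teratoma and at 191 and 194 FPKM in teratoma. The highest mean outside teratoma was that of day 21, with 1.80 and 1.92 FPKM, and the log2 change from giNPC P6 to teratoma was 7.52 ± 0.19 (limma, adjusted p = 1.9e-14), the largest of any member in that comparison.

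Dcx, doublecortin of migrating young neurons, was at or under 0.735 FPKM up to day 14 and at 3.23 and 2.72 on day 21 (log2 change 1.96 ± 0.63, limma adjusted p = 0.014). This call was lost when either day 1 library or day 21 replicate 1 was left out, though the change itself moved little (1.94, 1.99 and 1.87). The spread that limma used is 1 estimate over all groups, the unequal giNPC P6 libraries included. In giNPC P6 Dcx was at 20.4 FPKM in replicate 1 and 1.14 in replicate 2, against 0.598 and 0.496 in Brain-NPCs and 10.8 and 11.1 in teratoma. The log2 change of giNPC P6 against Brain-NPCs was 2.13 ± 0.63 (adjusted p = 0.0138) and fell to 0.47 without giNPC P6 replicate 1. Without Brain-NPC replicate 1 or replicate 2 it stayed at 2.18 and 2.08 but was not called. Between teratoma and giNPC P6 Dcx was not called (0.81 ± 0.63, limma adjusted p = 0.273), but it was without giNPC P6 replicate 1 (2.48).

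Gap43, a growth cone protein, was high in the induction cultures and in teratoma and low in pre-NPCs and giNPC P6. It was already at 245 and 244 FPKM on day 1 and at 286 and 291 on day 7, 137 and 126 on day 17 and 197 and 231 on day 21. The largest departure from day 1 among the induction days was that of day 17, with a log2 change of -0.90 ± 0.20 (limma, adjusted p = 0.00102), short of the fold that was called. Under median-of-ratios scaling this change was -1.24 and called. Pre-NPCs held 39.1 and 25.3 FPKM, lower than day 21 (log2 change -2.72 ± 0.20, adjusted p = 1.02e-07). The level was 11.7 and 19.4 FPKM in giNPC P6, lower than the 101 and 98.9 of Brain-NPCs (log2 change -2.65 ± 0.20, limma adjusted p = 1.64e-07), and 266.5 and 260.4 in teratoma. The lowest Gap43 in the series was thus in the induced progenitors, not in the fibroblast cultures.

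**Figure D4:**
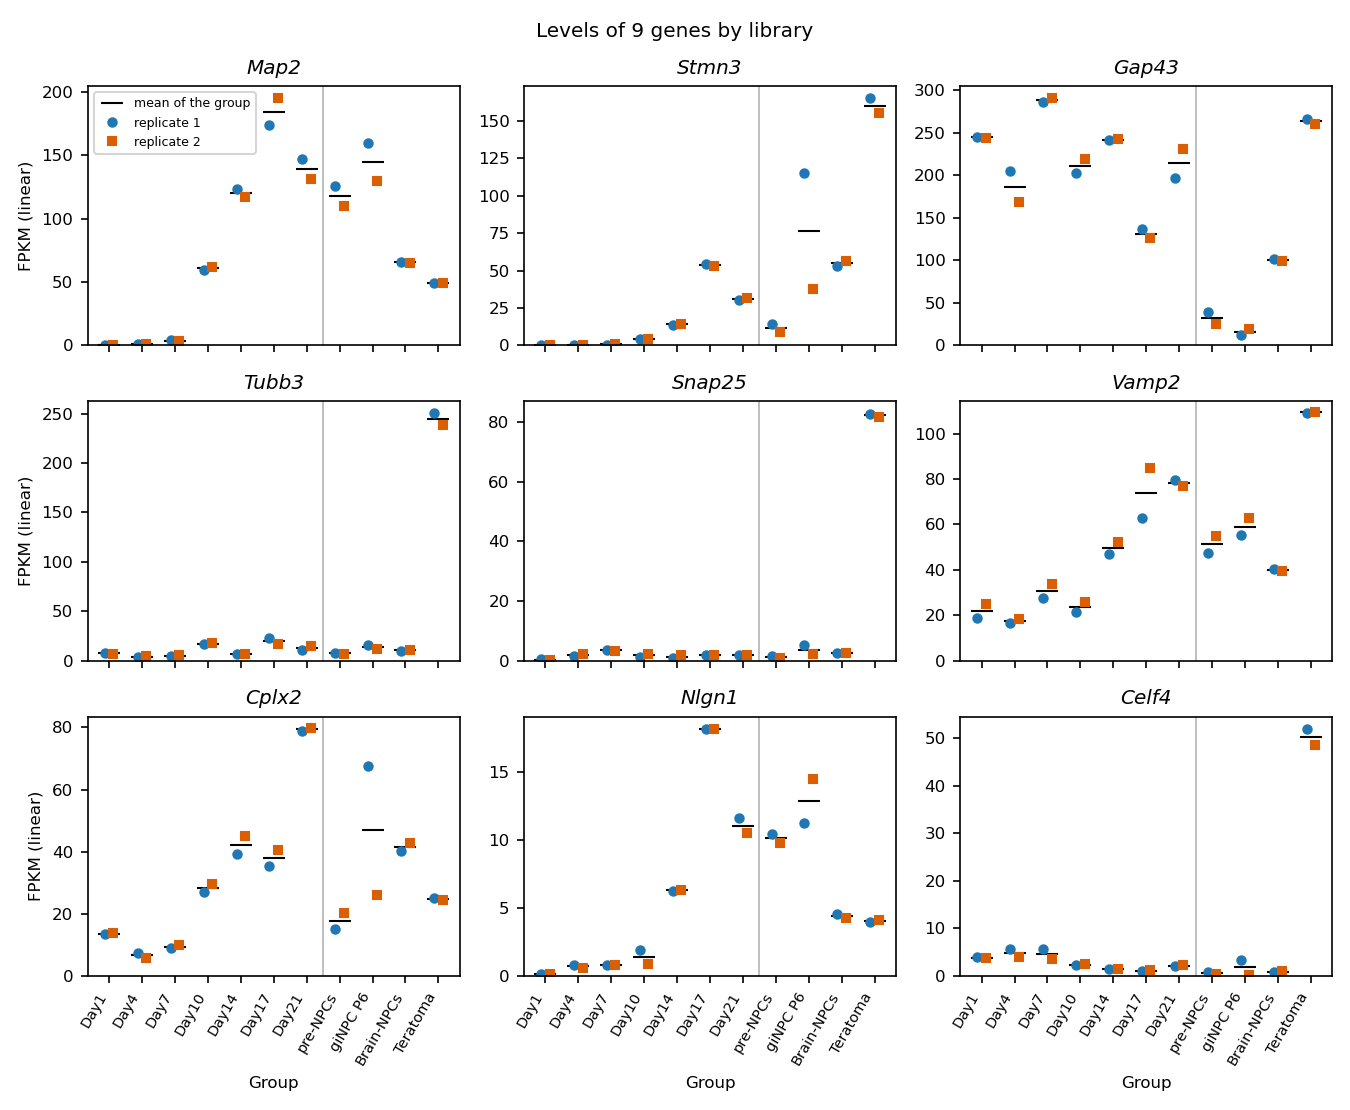
FPKM on linear axes from 0 for 9 genes in each library (circles replicate 1, squares replicate 2, bars the group mean), with the 7 induction days left of the grey line. Map2, Vamp2, Cplx2 and Nlgn1 climb during induction, Gap43 is high in all induction days, and Tubb3, Snap25 and Celf4 stand out in teratoma.

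Among the fusion proteins, Vamp2, the SNARE protein of the vesicle membrane, was well expressed in fibroblast cultures and rose further. It was at 18.9 and 24.8 FPKM on day 1, 46.9 and 52.2 on day 14 and 79.5 and 76.7 on day 21, and the day 21 libraries lay above all libraries up to day 14. The log2 change was 1.16 ± 0.15 on day 14 (limma, adjusted p = 1.46e-05), a call lost under median-of-ratios scaling (0.79), and 1.80 ± 0.15 on day 21 (adjusted p = 1.01e-07). Teratoma held 109.2 and 109.6 FPKM, 1.85 times the mean of giNPC P6, which did not reach the fold that was called. Vamp2 is used in many kinds of secretory traffic.

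Snap25, the SNARE protein of the neuronal plasma membrane, lies on chromosome 2 (chr2:136539186-136608164 in mm9). It was at 0.379 and 0.196 FPKM on day 1, 1.66 and 2.14 on day 4, 3.69 and 3.22 on day 7 and between 0.916 and 2.26 from day 10 to day 21. The day 4 and day 7 libraries all lay above those of day 1, with log2 changes of 1.17 ± 0.28 (limma, adjusted p = 0.00596) and 1.79 ± 0.28 (adjusted p = 0.000135), and the day 4 call was lost without day 1 replicate 2, without day 4 replicate 2 or under quantile normalisation. Snap25 was also called higher than day 1 on days 10, 17 and 21 and in giNPC P6, its highest mean outside teratoma (3.67 FPKM). Under median-of-ratios scaling the day 10 call was lost, and under quantile normalisation those of days 17 and 21 (0.82 and 0.81). The sum of 8 macrophage markers was 788 and 799 FPKM on day 1, 8617 and 10580 on day 4, 12330 and 11990 on day 7 and 298 and 369 on day 21. All 8 were at 1 FPKM or more from day 1 to day 14. Its part in the Snap25 values was not tested. Teratoma held 82.9 and 81.7 FPKM of Snap25, against 5.23 and 2.11 in giNPC P6 (log2 change 4.24 ± 0.28, limma adjusted p = 2.18e-09).

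Stx1a, syntaxin 1A and the other SNARE protein of the plasma membrane, lay between 2.02 and 4.21 FPKM in all 20 libraries outside teratoma and was called in no comparison but that of teratoma, where it held 17.4 and 16.0 FPKM (log2 change 2.41 ± 0.15, limma adjusted p = 7.82e-10). The 3 SNARE genes therefore did not share a time course. Vamp2 was first called higher than day 1 on day 14, and Snap25 on day 4, at a low level. Stx1a stayed between -0.60 and 0.12 on the log2 scale in all comparisons but that of teratoma.

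The complexins differed from each other. Cplx2 was at 13.5 and 13.7 FPKM on day 1, 27.1 and 29.6 on day 10 and 79.0 and 79.8 on day 21, its highest level in the series. The log2 change on day 21 was 2.46 ± 0.28 (limma, adjusted p = 2.47e-06), and pre-NPCs, at 15.0 and 20.3 FPKM, were lower than day 21 (-2.12 ± 0.28, adjusted p = 2.94e-05). Cplx1 was listed at 0 in the 6 libraries of days 1 to 7, and was at 4.28 and 4.05 FPKM on day 17 (log2 change 2.37 ± 0.18, limma adjusted p = 1.86e-08). It was at 14.7 and 15.2 FPKM in Brain-NPCs and 4.06 and 2.51 in pre-NPCs, a lower level (log2 change -1.92 ± 0.18, adjusted p = 3.36e-07). In teratoma Cplx1 was at 17.0 and 16.3 FPKM, and Cplx2 at 24.96 and 24.43, under both giNPC P6 libraries. Neither was called against giNPC P6 (log2 change 0.98 for Cplx1 and -0.75 for Cplx2), but Cplx1 was without giNPC P6 replicate 1 (1.26) and Cplx2 without replicate 2 (-1.42).

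Among the synaptotagmins, Syt1, the calcium sensor of fast release, stayed at or under 1.45 FPKM outside teratoma. Its day 17 libraries, at 1.31 and 1.45 FPKM, lay above the 0.0612 and 0.0846 FPKM of day 1 (log2 change 1.15 ± 0.10, limma adjusted p = 6.32e-08, and 0.93 and not called under quantile normalisation), and teratoma held 24.4 and 24.0 FPKM. Syt4, a synaptotagmin of dense-core vesicles, did not pass 0.586 FPKM outside teratoma and was at 24.9 and 23.9 FPKM there. It reached 1 FPKM through teratoma alone and so had to differ. An antisense RNA shares 14.5% of the exon bases of Syt4, and since the strand setting of the counting is not stated, reads of the pair cannot be told apart. Unc13a, which primes vesicles for fusion, was at 0.226 and 0.460 FPKM on day 1, 2.204 and 0.8402 in giNPC P6, 2.05 and 2.07 in Brain-NPCs and 6.03 and 6.20 in teratoma (log2 change against giNPC P6 1.55 ± 0.17, limma adjusted p = 1.08e-06), and under quantile normalisation this change was 0.69 and not called. Its exons overlap those of Colgalt1 on the opposite strand in 3.9% of their bases.

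Of the 5 vesicle proteins, 4 were called higher on day 17 than on day 1, against 19.3% of all genes, and the same 4 on day 21, against 18.3%. Syp, synaptophysin of small synaptic vesicles, was at 0.223 and 0.165 FPKM on day 1, 2.41 and 3.32 on day 14 and 7.53 and 8.84 on day 17, with no overlap between these days (log2 change on day 17 2.94 ± 0.45, limma adjusted p = 4.42e-05). Sv2a, a glycoprotein of all synaptic vesicles, climbed from 0.294 and 0.265 FPKM on day 1 to 5.41 and 5.72 on day 17 (log2 change 2.36 ± 0.11, adjusted p = 8.86e-11). It was the only member called higher in pre-NPCs than on day 21, at 16.0 and 15.6 against 6.65 and 6.29 FPKM (log2 change 1.17 ± 0.11, limma adjusted p = 1.21e-06), where 4.05% of all genes were called. It was lower in giNPC P6 than in pre-NPCs, at 5.28 and 5.46 FPKM (-1.40 ± 0.11, adjusted p = 1.81e-07). Sv2b, its relative of more restricted expression, did not pass 0.381 FPKM outside teratoma and was at 3.13 and 2.88 there. Sv2b reached 1 FPKM through teratoma alone and so had to differ. Its log2 change was 1.68, and 0.09 under quantile normalisation. An antisense RNA shares 16.8% of the exon bases of Syp, and reads of that pair cannot be told apart.

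The synapsins tether vesicles to the cytoskeleton. Syn1 was at 2.43 and 2.06 FPKM on day 1 and 8.70 and 8.26 on day 17 (log2 change 1.55 ± 0.24, limma adjusted p = 5.62e-05). It was lower in pre-NPCs, at 1.42 and 2.48 FPKM, than on day 21, at 6.98 and 4.76 (-1.22 ± 0.24, adjusted p = 0.00088), and that call was lost without day 21 replicate 1 or without pre-NPC replicate 1. Syn2 was listed at 0 in both day 1 libraries and was at 2.22 and 2.29 FPKM on day 10, 6.25 and 5.07 on day 14 and 22.6 and 21.5 on day 17 (log2 change 4.53 ± 0.19, limma adjusted p = 2.75e-11). Timp4, an inhibitor of matrix proteases, lies inside Syn2 on the opposite strand and shares 90 exon bases with it, and it moved from 0.119 and 0.0613 FPKM on day 1 to 193 and 158 on day 17. Without the strand of the reads, its part in Syn2 was not tested. In teratoma the genes parted, with Timp4 at 18.5 and 21.7 FPKM, against 138 and 222 in giNPC P6, and Syn2 at 15.9 in both libraries, against 8.38 and 15.6.

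Neuronal RNA-binding proteins control splicing and stability of neuronal transcripts. Rbfox3, which encodes the nuclear antigen NeuN of mature neurons, was at 0 and 0.0269 FPKM on day 1, 0.317 and 0.313 on day 14 and 2.76 and 3.21 on day 17 (log2 change 1.97 ± 0.38, limma adjusted p = 0.000358). The Elav genes stabilise neuronal messages. Elavl3 was at 0.0151 and 0.0471 FPKM on day 1, 1.94 and 2.00 on day 14 and 5.70 and 6.95 on day 17 (log2 change 2.82 ± 0.23, adjusted p = 4.32e-08). Elavl4 was highest among induction days on day 14, at 3.08 and 3.12 FPKM, and Elavl2 on day 17, at 2.23 and 2.42. Celf4, a splicing and translation regulator, moved the other way: it was at 3.85 and 3.76 FPKM on day 1 and 1.09 and 1.12 on day 17 (log2 change -1.19 ± 0.38, limma adjusted p = 0.0126). Without day 1 replicate 1 or day 17 replicate 1 the change stayed at -1.18 but was no longer called. All 5 were higher in teratoma than in giNPC P6, against 30% of all genes, from Celf4 at 52.0 and 48.6 FPKM to Rbfox3 at 8.73 and 9.02. The Rbfox3 call was lost without giNPC P6 replicate 2, when its log2 change was 0.33 in place of 1.32, and under quantile normalisation (0.78).

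Among adhesion and scaffold genes, Nlgn1, the neuroligin of excitatory synapses, was low on day 1 and peaked on day 17, as Map2 did. It was at 0.135 and 0.157 FPKM on day 1, 6.27 and 6.36 on day 14, 18.2 in both libraries on day 17 and 11.6 and 10.6 on day 21. The log2 change on day 17 was 4.07 ± 0.16 (limma, adjusted p = 1.96e-11). In giNPC P6 it was at 11.3 and 14.5 FPKM, above the 4.56 and 4.27 of Brain-NPCs (log2 change 1.35 ± 0.16, adjusted p = 1.98e-05, and 1.15 and not called by edgeR on counts) and above the 3.94 and 4.10 of teratoma (log2 change from giNPC P6 to teratoma -1.46 ± 0.16, limma adjusted p = 1.39e-06). Map2 and Nlgn1 were the 2 members called lower in teratoma. An antisense RNA shares 9.2% of the exon bases of Nlgn1, and reads of the pair cannot be told apart. Nrxn3, a neurexin and so a presynaptic partner of neuroligins, was at 0.0116 and 0.0640 FPKM on day 1 and 1.76 and 1.51 on day 21 (log2 change 1.34 ± 0.21, adjusted p = 4.44e-05). In teratoma it was at 5.73 and 5.80 FPKM, against 1.03 and 2.61 in giNPC P6 (1.32 ± 0.21, limma adjusted p = 4.03e-05). That call was lost under quantile normalisation (0.43) and without giNPC P6 replicate 1 (0.91), and edgeR on counts gave -0.01. The counts held only 0.13 of the reads expected from FPKM for Nrxn3 and 0.06 for Nlgn1, so the count tests cannot decide their changes.

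Dlg4, which encodes the postsynaptic scaffold PSD-95, was called in none of the 13 comparisons at the fold used, though its levels moved down and then up. It was at 18.5 and 17.3 FPKM on day 1, 9.8 and 12.95 on day 7, 26.6 and 25.7 on day 17 and 40.1 and 38.9 in teratoma. At an adjusted p under 0.05 alone it was below day 1 on day 7 (log2 change -0.62 ± 0.10, limma adjusted p = 0.000248) and above it on day 17 (log2 change 0.53 ± 0.10, limma adjusted p = 0.000424), and differed between teratoma and giNPC P6 (0.92 ± 0.10, adjusted p = 1.34e-06). The large scaffold proteins of the active zone were low in all cultures. Bsn (bassoon) and Pclo (piccolo) did not pass 0.814 and 1.01 FPKM outside teratoma, and were at 3.25 and 3.21 and at 2.56 and 2.69 FPKM there. Rims1, which links vesicles to calcium channels, was at 0.0216 and 0.0224 FPKM on day 1 and 1.54 and 1.85 on day 17 (log2 change 1.40 ± 0.07, adjusted p = 2.71e-10). On day 21 it was down at 0.462 and 0.469, and in teratoma it was at 2.34 and 2.35. For Bsn, Pclo and Rims1 the teratoma change was near 0 or negative under quantile normalisation, at -0.09, -0.05 and -0.38, against 1.44, 1.59 and 1.27. Bsn and Pclo reached 1 FPKM in 2 libraries through teratoma alone and so had to differ.

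Transmitter identity genes were the members least often seen in the cultures. Slc17a6, a vesicular glutamate transporter, Slc32a1, the vesicular transporter of GABA and glycine, and Th, the rate-limiting enzyme of catecholamine synthesis, did not pass 0.153, 0.101 and 0.0837 FPKM in any of the 20 libraries outside teratoma. In teratoma they were at 18.6 and 19.2, at 12.6 and 11.4 and at 19.8 and 19.7 FPKM. Together with Gad2, they reached 1 FPKM in 2 libraries through teratoma alone and so had to differ there. By read counts over both libraries of a group, Slc17a6 had 0 reads in giNPC P6, so that against a floor of 3 counts over the group teratoma was at least 588-fold higher at equal depth, and for Th the same bound was 223-fold. An antisense RNA shares 24.9% of the exon bases of Slc32a1, and reads of the pair cannot be told apart. Gad1, which makes GABA, was the exception in culture. It was at 0.0240 and 0.0249 FPKM on day 1, 1.31 and 1.10 on day 17 (log2 change 1.10 ± 0.10, limma adjusted p = 1.84e-07, and 0.95 under quantile normalisation), 3.40 and 3.16 in giNPC P6 and 2.66 and 2.17 in Brain-NPCs, and was higher in giNPC P6 than in pre-NPCs, at 0.718 and 0.640 FPKM (1.35 ± 0.10, adjusted p = 1.08e-07). Gad2, its relative at nerve terminals, did not pass 0.735 FPKM outside teratoma and was at 14.1 and 14.6 there.

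In pre-NPC clusters against day 21 cultures, Sv2a was higher (2.7%, against 4.05% of all genes). Lower were 4 members (10.8%, against 8.21% of all genes): Stmn3, Gap43, Syn1 and Cplx2. In giNPC P6 against pre-NPCs, 8 members were higher (21.6%, against 6.87% of all genes). They were Stmn3, Stmn4, Snap25, Syn1, Cplx1, Cplx2, Rbfox3 and Gad1. Gap43 and Sv2a were lower (5.41%, against 5.9%). Without giNPC P6 replicate 1 the higher members were Stmn3, Syn1 and Gad1, and the lower were Dcx and Sv2a. Without pre-NPC replicate 2, 5 members were higher, and without pre-NPC replicate 1, 1 was lower. Against Brain-NPCs, giNPC P6 had 5 higher members (13.5%, against 4.61%), namely Map2, Dcx, Stmn4, Rbfox3 and Nlgn1, and lower Gap43 (against 5.38%). Without giNPC P6 replicate 1 the higher members were Mapt and Nlgn1, and Syp and Cplx1 joined Gap43 as lower. Without Brain-NPC replicate 1, 3 were higher. Between pre-NPCs and Brain-NPCs the members' shares were near those of all genes. In pre-NPCs 3 members were higher (8.11%, against 11.1% of all genes), Dcx, Sv2a and Nlgn1. Another 6 were lower (16.2%, against 14.2%), Stmn3, Gap43, Syn1, Cplx1, Cplx2 and Gad1. The Dcx call was lost when any library of either group was left out, with changes of 1.58 to 1.89. Without pre-NPC replicate 1 or Brain-NPC replicate 1 there was 1 higher member. In giNPC P6 against day 1, 19 members were higher (51.4%, against 20.9%) and Gap43 and Celf4 lower (5.41%, against 13.8%). The day 1 libraries are shared with the comparisons of days 4 to 21. Pre-NPC libraries and giNPC P6 replicate 1 did not share the marks of sex of the induction libraries. Their comparisons with induction days therefore do not follow 1 lineage over time. The median log2 change of the members between giNPC P6 and Brain-NPCs was 0.02.

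The giNPC P6 libraries, which did not share the marks of 1 sex, differed from each other in these genes. Of the 26 members at 1 FPKM or more in either library, 11 were at least 2-fold higher in replicate 1 and 2 were at least 2-fold higher in replicate 2. Over all genes the shares were 4.79% and 4.37% of 11784. Dcx was at 20.4 and 1.14 FPKM, Celf4 was 13.1 times as high in replicate 1 (3.36 against 0.257 FPKM), Syp 7.91 times (8.63 against 1.09 FPKM) and Rbfox3 6.91 times (6.87 against 0.995 FPKM). Stmn3 was at 115 and 37.7 FPKM and Cplx2 at 67.6 and 26.1. Elavl2 and Nrxn3 were the members higher in replicate 2, while Map2, Vamp2, Sv2a, Dlg4 and Gad1 lay within 2-fold. In other groups, 2 of 22 members in pre-NPCs (9.09%, against 4.38% of all genes) and 2 of 13 on day 7 (15.4%, against 3.29%) were 2-fold apart between libraries, and in Brain-NPCs no member of 24 was, against 0.639% of all genes. Neuroendocrine markers also differed, with a sum over 10 genes of 68.3 FPKM in giNPC P6 replicate 1 and 26.0 in replicate 2, and their part in the members' values was not tested.

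**Figure D5:**
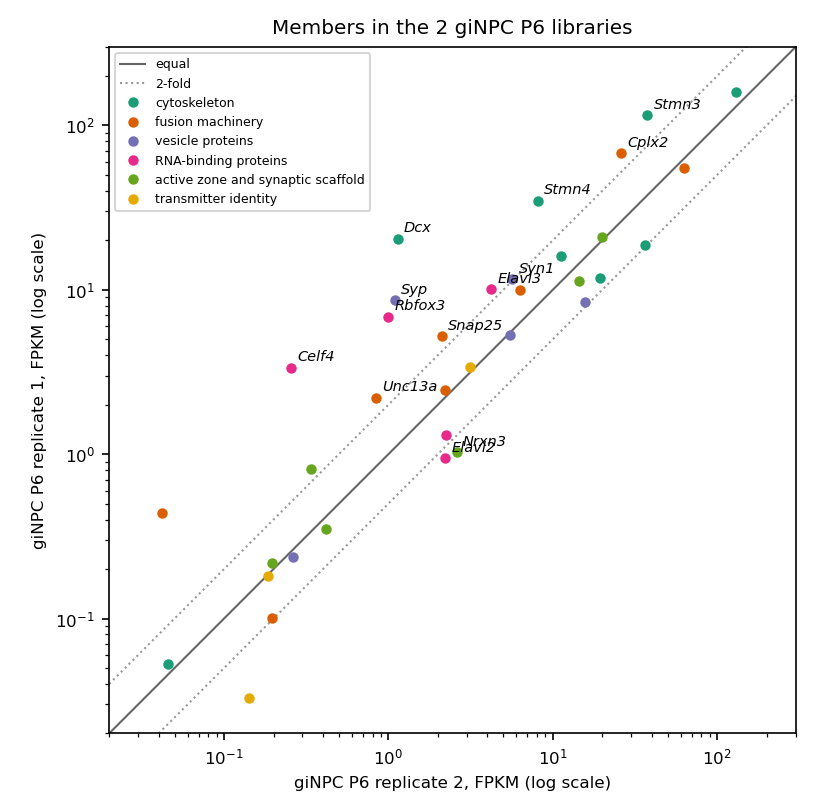
FPKM of the members in giNPC P6 replicate 1 against replicate 2 on log axes, coloured by role, with the solid line at equal levels and dotted lines at 2-fold. Named genes are at least 2-fold apart and at 1 FPKM or more in either library: 11 lie above the upper dotted line, Dcx and Celf4 farthest from it, and 2 lie under the lower.

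In teratoma 29 of 37 tested members were higher than in giNPC P6 (78.4%, against 30% of all genes), and Map2 and Nlgn1 were lower (5.41%, against 5.98%). Since 8 members (Syt4, Sv2b, Bsn, Pclo, Slc17a6, Slc32a1, Gad2 and Th) reached 1 FPKM in 2 libraries through teratoma alone and had to differ, the count was repeated over genes that reached it in other groups. Of 29 such members 21 were higher (72.4%, against 21.0% of 13747 genes) and 2 lower (6.9%, against 6.81%). The 6 members with no call were Dcx, Syn2, Vamp2, Cplx1, Cplx2 and Dlg4. Under quantile normalisation 22 of 37 members were higher. The share of all genes was not counted under that setting, which moved the median log2 change of all genes there from 0.18 to -0.27. Teratoma is a mixed tissue, and its libraries also held markers of other cells that express some of these genes. The 10 neuroendocrine markers summed to 397 and 395 FPKM, all at 1 FPKM or more, against 68.3 and 26.0 in giNPC P6, and 9 of 10 were higher and 1 lower by limma, among the higher the secretory proteins Scg2 at 152 FPKM and Chgb at 53.7 FPKM, each a mean. All 8 skeletal muscle markers were higher, with sums of 614 and 607 FPKM, as were all 10 fibroblast markers, with sums of 2120 and 2071 FPKM, and all 8 macrophage markers, with sums of 1101 and 1103 FPKM. Neural progenitor markers summed to 589 and 570 FPKM against 4256 and 5694, and 8 of 10 were lower. Of 10 oligodendrocyte lineage markers 7 were higher and 2 lower, and of 8 astrocyte markers 2 were higher and 4 lower. Of these lists, 5 neuroendocrine, 4 muscle and 1 oligodendrocyte lineage marker reached 1 FPKM through teratoma alone and had to differ. The part of each cell type in the members' levels was not tested.

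Other genes of the same processes were counted from lists that hold none of the members. The lists were chosen with earlier results of these data known, so their counts are a description and not independent support. On day 21 against day 1, 18 of 48 tested vesicle and release genes were higher and 4 lower, with a median log2 change of 0.53, and 20 of 36 cytoskeleton and growth cone genes were higher and 3 lower, with a median of 1.55. Examples were Syt11, a synaptotagmin that does not bind calcium, at 302 against 2.51 FPKM (log2 change 6.45 ± 0.13, limma adjusted p = 1.83e-14), and Cntn1, an axonal adhesion molecule, at 72.8 against 0.124 (6.04 ± 0.16, adjusted p = 2.07e-13). Of 29 adhesion and postsynaptic genes 14 were higher and 1 lower, including the neurexin Nrxn2 at 38.9 against 0.125 FPKM. In contrast, of 16 tested relatives with broad expression, such as Snap23 and Vamp3, 1 was higher (Syt11, which both lists hold) and 2 were lower, and of 22 neuronal differentiation transcription factors 2 were higher, among them Myt1 at 4.76 against 0.00742 FPKM, and 1 was lower. Of 12 RNA-binding genes 5 were higher and 2 lower, of 12 genes of transmitter synthesis and transport 4 and 1, and of 10 genes for the repressor REST and its cofactors 1 was lower. All genes together had 18.3% higher and 10.3% lower in that comparison.

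For teratoma against giNPC P6 the same lists were counted over genes that reached 1 FPKM in 2 libraries of other groups, where 21.0% of all genes were higher and 6.81% lower. Of 44 vesicle and release genes 28 were higher and 1 lower, and of 33 cytoskeleton genes 16 and 5. Of 10 RNA-binding genes 5 were higher, and of 11 transcription factors 6 were higher and 2 lower. In the other lists there were 7 higher and 5 lower of 27 adhesion genes, 1 and 2 of 6 transmitter genes and 2 and 1 of 16 broadly expressed relatives. Another 11 transcription factors and 6 transmitter genes reached that level through teratoma alone. The repressor Rest, which silences many neuronal genes in other tissues, was called in none of the 13 comparisons at the fold used. At a limma adjusted p under 0.05 alone it was below day 1 on days 7, 14, 17 and 21 and in giNPC P6. The largest of these changes was that of day 21 (log2 change -0.79 ± 0.15, limma adjusted p = 0.000389). At that level it was also lower in teratoma than in giNPC P6 (-0.48). It was higher in pre-NPCs than on day 21 (0.61) and than in Brain-NPCs (0.44). Its mean was 4.58 FPKM on day 1, 5.18 on day 10, 2.23 on day 21, 3.94 in pre-NPCs, 3.12 in giNPC P6, 2.64 in Brain-NPCs and 1.93 in teratoma. Ptbp1, a splicing repressor of neuronal exons, was at 63.8 and 63.0 FPKM on day 1 and 29.4 and 29.2 on day 17 (log2 change -1.09 ± 0.17, limma adjusted p = 5.83e-05), with means of 25.1 in pre-NPCs, 55.1 in giNPC P6, 81.7 in Brain-NPCs and 58.8 in teratoma.

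Promoter windows of RefSeq on GRCm38.p6, 250 bases before to 50 bases after a gene's start, were found for 30 of the 38 members, 50 windows in all, and not for Stmn2, Stmn4, Vamp2, Snap25, Gap43, Celf4, Mapt or Syt4. They were searched on both strands for the RE1 motif bound by REST, the only motif searched, as a consensus of 17 letters of which 15 are fixed. With up to 3 mismatches it was found in 4 of 50 member windows (8.0%), of Gad2, Nlgn1, Unc13a and Syn1, and in 385 of 32851 windows of all genes (1.17%). With up to 1 mismatch it was found in Syn1 and in 19 windows of all genes (0.0578%). The matches of Syn1, Gad2 and Nlgn1, in capitals, are shown on the strand of the gene because these genes differ widely in their levels above. They are a match of letters and describe no binding.
Syn1 (chrX:20921109-20921168, minus strand, 1 mismatch): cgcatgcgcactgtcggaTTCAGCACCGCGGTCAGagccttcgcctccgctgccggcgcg
Gad2 (chr2:22622136-22622202, plus strand, 3 mismatches): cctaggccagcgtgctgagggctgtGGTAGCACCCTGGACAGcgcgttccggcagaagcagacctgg
Nlgn1 (chr3:26154098-26154164, minus strand, 3 mismatches): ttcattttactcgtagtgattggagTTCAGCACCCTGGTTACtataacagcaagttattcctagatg

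Counted from the gene's start, the match began at -232 in Syn1, -166 in Gad2 and -153 in Nlgn1. Among these genes Syn1 was at 2.43 and 2.06 FPKM on day 1, Nlgn1 at 0.135 and 0.157 and Gad2 at 0.0539 and 0.126. On day 17 they were at 8.70 and 8.26, at 18.2 in both libraries and at 0.513 and 0.507 FPKM, and in teratoma at 27.9 and 26.7, at 3.94 and 4.10 and at 14.1 and 14.6 FPKM. Syn1 and Gad2, and Unc13a with them, had their highest mean in teratoma, and Nlgn1 on day 17.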

How the data were processed

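Poly(A)-selected RNA of 22 libraries was sequenced on an Illumina HiSeq as paired ends, per the labels' protocols. The submitters' processing notes name TopHat2 2.0.12, HTSeq 0.6.0, Cufflinks 2.2.1, edgeR and build mm9. The sources used here do not give their options, including strand. Read counts per transcript and FPKM per transcript were deposited by the authors, with no replicates pooled. Counts lose most reads of the 15 members with several transcripts, so the FPKM, summed per gene, gave the levels and tests. The 637 transcripts without a gene name, 0.351% to 1.18% of the FPKM of a library, were left out.

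From the deposited FPKM, log2(FPKM + 1) was computed for 15658 genes with at least 1 FPKM in 2 or more libraries, and all 11 group means were fitted together with limma 3.58.1 (trend, 11 residual degrees of freedom) in R 4.3.3. Adjusted p-values are Benjamini-Hochberg over all genes. Alternatives were a pseudocount of 0.1, no filter, median-of-ratios scaling (each library scaled by its median ratio to a common reference), quantile normalisation, no trend, a replicate block, each library left out, and edgeR 4.0.16 and DESeq2 1.42.0 on the counts. The fits were tested on simulated data. Genes were named where they were members, and other genes by the largest changes of their list. Members and lists were chosen with earlier results of these data known. Counts over genes that reached the minimum outside teratoma were added after seeing the data. Floors of 3 counts cover counting error only. Promoter windows come from RefSeq, and exons, their overlaps and the Map2 exon sequence from GENCODE.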

Additional observations from a re-analysis of the deposited data

How the results depend on the processing

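The 37 tested members gave 26 counts of calls over 13 comparisons. With a pseudocount of 0.1, 3 members were higher and 1 lower at day 4, 8 were higher at day 7 and 19 on day 10, 22 were higher on day 14 and 28 on day 21, 11 were higher and 1 lower at day 21 against day 14, and 4 were lower in giNPC P6 against pre-NPCs and 4 against Brain-NPCs. Median-of-ratios scaling gave 1 lower at day 4, 3 higher at day 10, 1 lower at day 14 and 2 lower at day 17. Quantile normalisation gave 0 higher and 1 lower at day 4, 3 higher and 1 lower at day 10, 1 lower at day 14 and 2 lower at day 17. On counts, where 29 members could be tested, edgeR gave 2 higher and 2 lower at day 4, 2 lower at day 7 and 1 lower at day 10, and DESeq2 gave 3 higher and 2 lower, 4 higher and 2 lower, and 1 lower. Both gave 5 higher and 4 lower in giNPC P6 against pre-NPCs and 2 higher and 4 lower against Brain-NPCs. The cause was not tested. With the pseudocount, the shares of all genes were 10.1% higher and 1.69% lower at day 4, and 7.16% and 8.59% at day 21 against day 14. Of all genes, 11.5% were lower in giNPC P6 against pre-NPCs and 9.06% against Brain-NPCs. Under the other settings, and with a library left out, shares of all genes were not counted, so those counts have no background beside them.

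With a library left out, the count higher at day 4 ranged from 0 to 1 and the count lower from 0 to 1, the count lower at day 17 from 0 to 1, and for day 21 against day 14 from 3 to 4 higher and 0 to 1 lower. It ranged from 1 to 2 higher for pre-NPCs against day 21, from 3 to 12 higher and 1 to 3 lower for giNPC P6 against pre-NPCs, from 2 to 7 higher and 1 to 3 lower against Brain-NPCs, from 1 to 3 higher for pre-NPCs against Brain-NPCs and from 1 to 2 lower for giNPC P6 against day 1. Between teratoma and giNPC P6 the sign turned for Nrxn3 with edgeR (-0.01), on counts that lose most reads of this gene. It also turned under quantile normalisation for Rims1 (-0.38), Bsn (-0.09) and Pclo (-0.05), and quantile normalisation moved the median of all genes there to -0.27. Of the single genes' values, 1084 kept their call or their lack of one, 87 lost the call and 11 gained it. Among those 1084, values called in neither setting may have changed sign.

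Replicate numbers did not pair the libraries: deviations of same-numbered libraries correlated between -0.261 and 0.281, over 0.1 in 9 of 55 pairs of groups. With the number as a replicate block the counts were as before, such as 21 higher at day 17 and 29 in teratoma. With 2 libraries a group, a change within the spread between libraries was not detectable.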
